A study of Mus musculus with 2 samples.

Results

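Collagens are the main structural proteins of the extracellular matrix, and the 44 collagen chain genes described here are those whose symbol has the form Col, a type number, the letter a and a chain number, out of 55536 genes listed. The rule uses the symbol alone and no measured value, although the family was picked with earlier results of these data known. Total RNA was sequenced from heart tissue of male mice aged 36 days, of the strain B6CASTF1/J, an F1 cross of B6 and CAST mice. Each stranded library was made from 300 ng of RNA after reduction of ribosomal RNA, with ERCC spike-ins, which are synthetic RNAs of known sequence. The labels give 1 group of 2 biological replicates from separate biosamples that carry the same donor entry, and no other genotype or treatment, so no groups were compared. Whether the biosamples come from separate animals was not given in the sources used here, and the spread between them may be partly technical.

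Each collagen molecule is a triple helix of 3 chains, and within the helix glycine returns at a fixed step of 3 amino acids. Fibrillar collagens (types I, II, III, V, XI, XXIV and XXVII) assemble into the fibrils that give tissue its tensile strength. Type IV collagens form the network of basement membranes, which in heart surround each muscle cell and line the capillaries. Beaded filament collagens (types VI and XXVIII), multiplexins (types XV and XVIII) and several minor classes link or border these networks. In the heart, fibroblasts are the main source of types I and III, while endothelial and mural cells also make type IV.

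The 2 replicates held 41846508 and 42481559 expected counts (reads assigned to genes, with shared reads split by a model), of which 0.487% and 0.470% fell on the spike-ins. The counts of the 2 libraries differed by more than sampling noise (chi-square per degree of freedom of 24.1 over 15749 genes), and they were counted as 2 samples, as the labels give them. Heart muscle markers were abundant in both, with Myh6, the adult cardiac myosin, at 7641 and 8514 TPM (transcripts scaled to their length and to the library). In 41 of the 44 collagen genes, the expected counts were whole numbers in both hearts, as they are when no read is divided between genes. The exceptions were Col6a5 and Col6a6, which are related neighbours, and Col3a1, which encloses the microRNA gene Gm47302 with 385.1 and 308.09 counts in replicates 1 and 2.

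The coding sequences show the repeat that defines the family and the way the classes differ in it. A run was counted as consecutive triplets of codons that start with a glycine codon, GGN, in the longest coding sequence of each gene in the GENCODE M21 annotation. A run of 10 or more such triplets was present in 44 of 44 collagen genes, and in 54 of 21809 other nuclear protein-coding genes (0.248%). The longest run held 216 to 344 triplets in the 11 fibrillar genes, with a median of 338, against 39 to 66 triplets in the 6 type IV genes. Type IV genes had 16 to 24 separate runs of 4 or more triplets, whereas fibrillar genes had 2 to 4. The exons differed as well. Of the 649 coding exons of fibrillar genes, 47.0% were exactly 54 nt long, which is 6 triplets of 9 nt, and 82.4% had a length that is a multiple of 9. In type IV genes 4.05% of 296 coding exons were 54 nt long and 45.9% were multiples of 9. The same shares were 0.444% and 14.0% over 196995 coding exons of other genes.

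The following exons, each read on the strand of its gene from the GENCODE transcripts (mm10), show an unbroken fibrillar repeat and an interrupted type IV repeat. Each was picked for its pattern, so they do not show how common it is. In the fibrillar genes it is the first 54 nt coding exon made of 6 triplets. In the type IV genes it is the first coding exon of up to 130 nt that met a set pattern. The pattern asked for a minimum number of glycine codons and of regular steps, with unbroken steps at both ends and a break between them. Earlier exons may hold breaks without meeting it. Capitals mark every glycine codon, GGN, in the reading frame. Coding exon 6 of Col3a1 (chr1:45325360-45325413, plus strand) and coding exon 8 of Col1a2 (chr6:4515481-4515534, plus strand) each hold 6 triplets in 54 nt. Coding exon 46 of Col4a1 (chr8:11209522-11209650, minus strand) and coding exon 32 of Col4a2 (chr8:11437587-11437709, plus strand) hold triplets on both sides of breaks, and begin 2 bases before their first whole codon.
Col3a1 exon 6: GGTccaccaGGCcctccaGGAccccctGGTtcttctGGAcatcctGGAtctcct
Col1a2 exon 8: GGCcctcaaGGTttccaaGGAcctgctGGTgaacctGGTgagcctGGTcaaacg
Col4a1 exon 46: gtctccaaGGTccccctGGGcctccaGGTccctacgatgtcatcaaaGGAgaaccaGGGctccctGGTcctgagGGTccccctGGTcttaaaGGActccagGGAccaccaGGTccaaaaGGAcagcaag
Col4a2 exon 32: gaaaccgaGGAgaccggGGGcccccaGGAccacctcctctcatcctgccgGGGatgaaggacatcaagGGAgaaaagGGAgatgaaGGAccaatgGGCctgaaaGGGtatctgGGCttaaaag
The Col3a1 and Col1a2 exons begin with a glycine codon and keep one at the start of each triplet to their end. In the Col4a1 exon 1 stretch breaks this step, and in the Col4a2 exon 2 stretches do, with a single glycine codon between them.

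**Figure D1:**
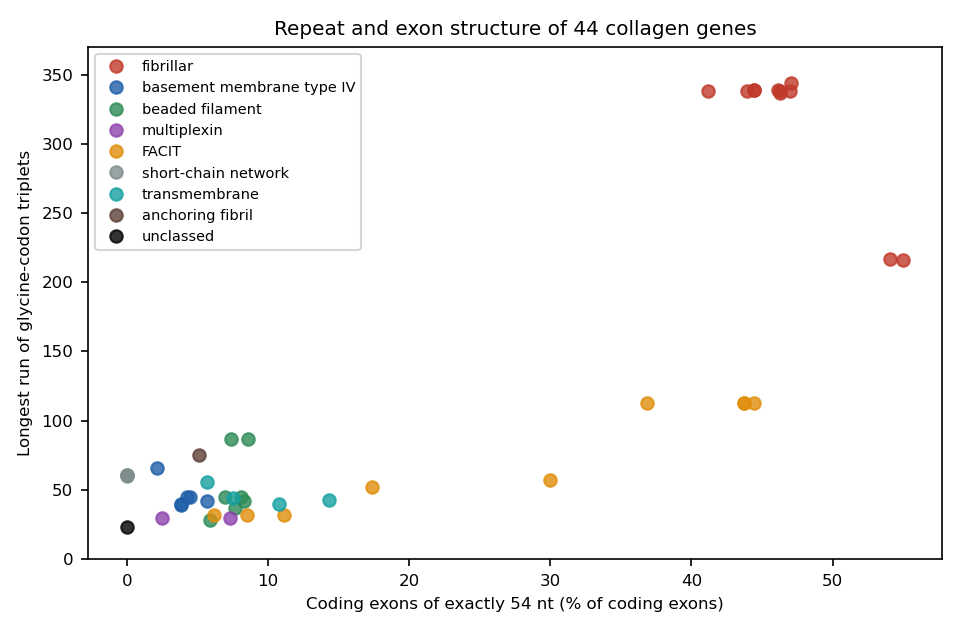
Each point is 1 of the 44 collagen genes. The horizontal axis is the percent of coding exons of exactly 54 nt and the vertical axis the number of glycine-codon triplets in the longest run. The 11 fibrillar genes lie at 216 or more triplets, and the genes of the other classes at 113 or fewer.

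Basement membrane and fibrillar chains made up most of the collagen RNA. Of the 44 genes, 20 reached 1 TPM in both hearts and 12 reached 10 TPM in both, while 10943 of 22015 nuclear protein-coding genes reached 1 TPM. Another 21 genes were below 0.5 TPM in both hearts, 10 of them below 0.1 TPM. Col4a6 reached 1 TPM in replicate 1 alone. Summed over all chains, collagen stood at 943 and 741 TPM in replicates 1 and 2, or 842 ± 143 TPM (SD, n = 2 for every value given with ±). This was 0.223% ± 0.0390 of the TPM of nuclear protein-coding genes. By expected counts, where longer RNAs weigh more, the share was 0.588% ± 0.108. The 3 most abundant chains, Col4a1, Col3a1 and Col4a2, held 58.8% ± 0.761 of collagen TPM, and the 5 most abundant held 74.3% ± 0.662.

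**Figure D2:**
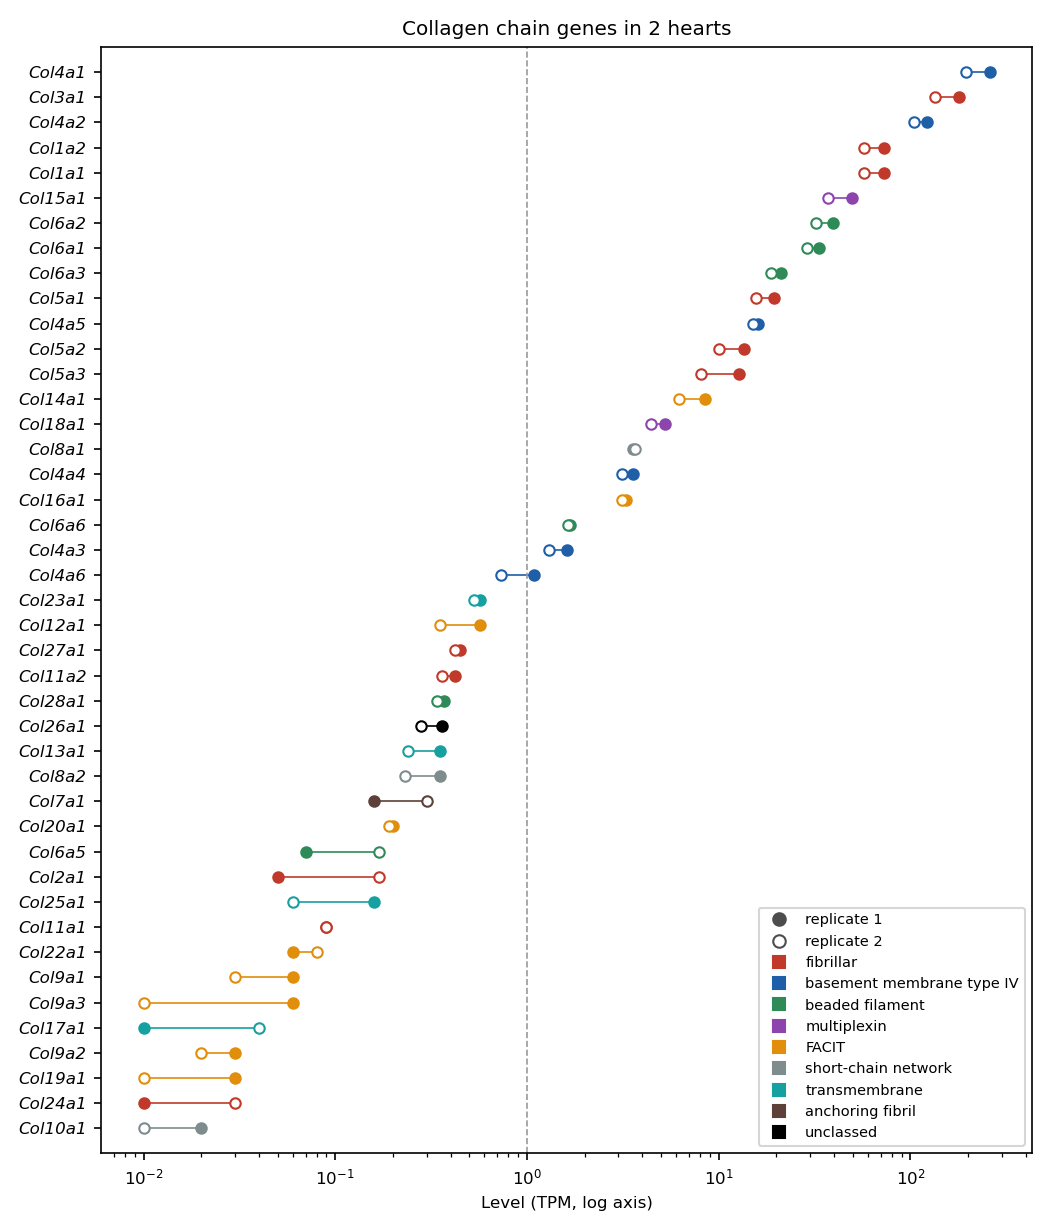
Level of each collagen gene on a log axis in TPM, with filled points for replicate 1 and open points for replicate 2, coloured by class. Col6a4, listed at 0 in both hearts, is not drawn. The dashed line marks 1 TPM, and the filled point lies to the right of the open one for each of the 7 most abundant genes.

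The order of the 20 genes that reached 1 TPM in both hearts was similar in both. Of the 19 pairs of neighbours in that order, 17 had the same order in both hearts, the exceptions being Col1a2 with Col1a1 and Col4a4 with Col16a1. In 11 of these pairs the range of the 2 hearts for one gene lay wholly above the range for the next. The other 8 pairs overlapped, for example Col15a1 with Col6a2 and Col5a1 with Col4a5.

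Type IV chains formed the largest class, with 5 of 6 genes at 1 TPM or more in both hearts and 42.9% ± 0.0962 of collagen TPM. Col4a1 (mm10, chromosome 8, 11198423 to 11312826, minus strand) encodes a chain of the basement membrane trimer found in nearly all tissues. It had 259 and 194 TPM in replicates 1 and 2 (227 ± 46.1). Col4a1 was the most abundant collagen gene in both hearts and ranked 206 in replicate 1 and 286 in replicate 2 among nuclear protein-coding genes. Col4a2, its partner in that trimer, had 122 and 104 TPM (113 ± 12.7). Col4a5, known from the basement membranes of kidney and muscle, had 16.1 and 15.03 TPM, and its levels in the 2 hearts were close. Col4a4 and Col4a3, which join Col4a5 in the trimer of the kidney filter, had 3.57 and 3.12 TPM and 1.61 and 1.31 TPM. Col4a6, the partner of Col4a5 in smooth muscle basement membranes, had 1.09 and 0.73 TPM.

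Fibrillar chains held 38.7% ± 0.691 of collagen TPM, with 6 of 11 genes at 1 TPM or more in both hearts. Col3a1 (chromosome 1, 45311538 to 45349706, plus strand), the chain of type III collagen, had 178 and 134 TPM in replicates 1 and 2 (156 ± 31.5). Col1a2 and Col1a1, the chains of type I collagen, had 72.5 and 57.5 TPM each. Type V chains, which help to set fibril diameter, were lower. Col5a1 had 19.4 and 15.6 TPM, Col5a2 13.5 and 10 TPM, and Col5a3 12.7 and 8.12 TPM. Every one of these 6 genes was higher in replicate 1 than in replicate 2, as were 35 of the 44 collagen genes of all classes by TPM. On scaled counts, 49.9% of all genes with at least 50 counts on average were higher in replicate 1. The remaining 5 were below 0.5 TPM in both hearts, among them Col2a1 and Col11a1, which are chains of cartilage fibrils. Col2a1 had 8 and 16 counts and Col11a1 had 13 and 10.

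Type IV exceeded fibrillar TPM by a factor of 1.09 in replicate 1 and 1.12 in replicate 2. The order of these 2 classes depended on which transcripts were summed. When TPM was summed only over coding transcripts of 2000 nt or longer, a choice made after the data were seen, the fibrillar class held 41.0% and type IV 40.2%.

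Beaded filament genes held 10.6% ± 0.640 of collagen TPM, almost all of it in the 3 classical type VI chains. Type VI collagen forms microfibrils close to cell surfaces, and its loss causes muscle disease in humans. Col6a2 had 39.5 and 32.4 TPM in replicates 1 and 2, Col6a1 33.4 and 29.0 TPM, and Col6a3 21.1 and 18.8 TPM. Col6a6, a chain related to Col6a3, had 1.68 and 1.64 TPM. Col6a5 had 22.36 and 36.5 counts. Col6a4 had 0 counts in both hearts, which leaves room for 3 counts, or 0.0717 CPM in replicate 1 and 0.0706 CPM in replicate 2 (CPM are counts scaled to the library total), and is the only member without a count.

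The multiplexins held 5.70% ± 0.144. Col15a1, a collagen of the outer face of muscle and capillary basement membranes, had 49.5 and 37.1 TPM in replicates 1 and 2, and Col18a1, whose end fragment is endostatin, had 5.28 and 4.43 TPM. The other 18 genes together held 2.01% ± 0.0991, with 3 at 1 TPM or more in both hearts. Col14a1, a FACIT (a class that binds to the surface of fibrils), had 8.47 and 6.24 TPM. Col8a1, a short-chain collagen of vessels, had 3.58 and 3.66 TPM, and was the most abundant member that was not higher in replicate 1 by TPM. The FACIT gene Col16a1 had 3.27 and 3.15 TPM. The 4 transmembrane genes were at 0.57 TPM or below. Col7a1, the anchoring fibril chain of skin, had 13 and 14 counts, with most of its TPM on retained-intron transcripts.

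Chains of a type were compared per length within each heart. Col1a1 held 49.99% ± 0.0257 of the TPM of the type I pair, although the assembled type I molecule has more of the Col1a1 chain than of the Col1a2 chain. The equality depended on which transcripts were summed, since over coding transcripts of 2000 nt or longer Col1a1 stood at 1.17 ± 0.0102 times Col1a2. Col3a1 held 54.5% ± 0.980 of the TPM of Col3a1, Col1a1 and Col1a2. Col4a1 held 66.5% ± 2.05 against Col4a2, a ratio of 1.99 ± 0.184. Over coding transcripts of 2000 nt or longer that ratio was 1.37 ± 0.0675, and 1.40 ± 0.0655 in the second quantification. Among the minor type IV chains, Col4a5 held 93.7% in replicate 1 and 95.4% in replicate 2 against Col4a6, and Col4a4 held 69.7% ± 1.07 against Col4a3.

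Type V TPM was split into 44.4% ± 2.70 Col5a1, 29.6% ± 0.0167 Col5a2 and 26.0% ± 2.71 Col5a3. Col5a1 took a smaller share in replicate 1 (42.5%) than in replicate 2 (46.3%), and Col5a3 a larger one (27.9% against 24.1%). Type VI was split into 35.8% ± 0.431 Col6a1, 41.2% ± 1.11 Col6a2 and 23.0% ± 0.675 Col6a3. Col15a1 held 89.8% ± 0.725 against Col18a1, and Col8a1 held 92.6% ± 2.12 against Col8a2. Within these sets the highest chain was the same in both hearts except in type I, where Col1a1 and Col1a2 were level.

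**Figure D3:**
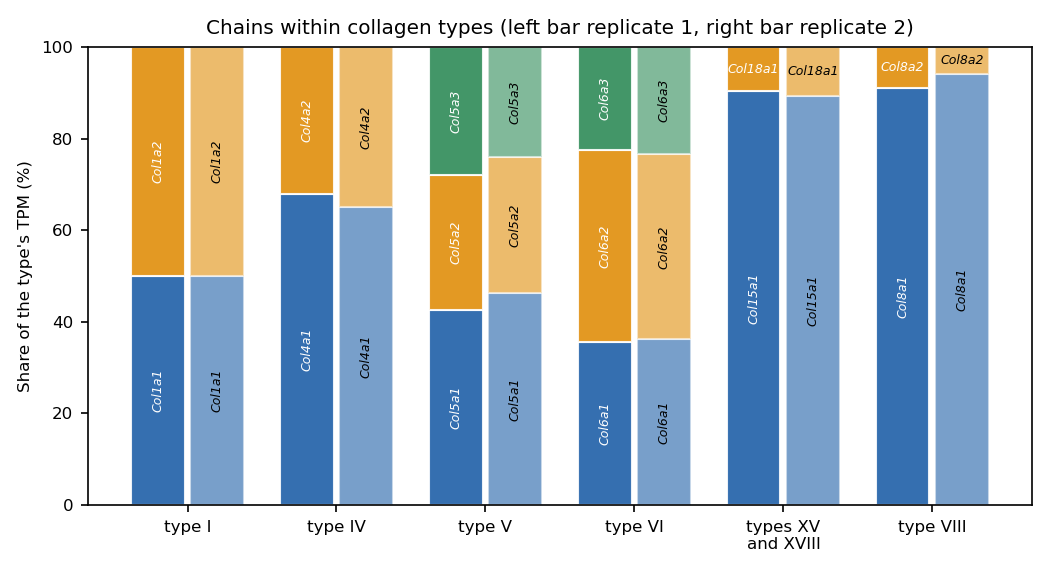
Share of the TPM of each collagen type held by each chain, in percent, with replicate 1 as the left bar and replicate 2 as the right bar of each pair. Col1a1 and Col1a2 divide type I evenly, and Col4a1 holds 68.0% and 65.1% against Col4a2 in replicates 1 and 2.

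Most abundant collagen genes had 1 dominant transcript. Of the 20 genes with a mean of 1 TPM or more, each with 2 to 13 annotated transcripts, 19 had the same main transcript in both hearts. A main transcript of 90% or more was found for 10 of the 20. In the second quantification the main transcript also matched between hearts for 19 genes, and both quantifications gave the same main transcript for 19. The exception was Col16a1, where Col16a1-209, annotated for nonsense-mediated decay, led in replicate 1 and Col16a1-207, a processed transcript, in replicate 2. Transcripts annotated as protein-coding held 39.5% ± 1.03 of Col16a1 TPM. Its counts were 355 and 246 in replicates 1 and 2 while its TPM values were close, so its level per length depends on how reads were divided among its transcripts.

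Short transcripts carried part of the TPM of several abundant genes. Col4a1-201, of 6615 nt, held 68.8% ± 2.66 of Col4a1 TPM, and Col4a1-203, of 545 nt, held 28.4% ± 2.56. This short transcript (mm10, chromosome 8, 11244363 to 11279656) has 10 exons. It begins inside the gene, at 11279656, and not at the annotated gene start of 11312826. Its span reaches exon 10 of the 52 exons of Col4a1-201. Col3a1-201 held 87.2% ± 0.478 of Col3a1 TPM, but 57.4% in the second quantification, where Col3a1-205, of 737 nt, held 33.6%. In Col6a3, Col6a3-202, of 9001 nt, held 64.2% ± 6.04, and the retained-intron transcript Col6a3-206, of 646 nt, held 17.9% ± 6.17. The second quantification placed Col4a1 1.44 times and Col3a1 1.58 times above the first in TPM, against 1.14 for Col4a2.

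The position of the genes in mm10 pairs several members. Col4a1 and Col4a2 lie head to head on chromosome 8 and their annotated starts overlap by 22 bases. Col4a4 and Col4a3 lie head to head on chromosome 1 with 71 bases between their starts, and Col4a6 and Col4a5 head to head on chromosome X with 1308 bases between them. Such pairs are known to be transcribed from shared promoter regions. Within the pairs, the log2 ratio of replicate 1 over replicate 2 was 0.39 and 0.28 for Col4a1 and Col4a2, 0.26 and 0.12 for Col4a4 and Col4a3, and 0.61 and 0.09 for Col4a6 and Col4a5. Col3a1 and Col5a2 lie tail to tail on chromosome 1, 24614 bases apart, with log2 ratios of 0.46 each.

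The 71 bases between Col4a4 and Col4a3 are shown as the shorter of the 2 gaps between paired starts, from RefSeq (GRCm38.p6, chr1:82586850-82586920, minus strand, the strand of Col4a4), with a GC content of 69%.
Col4a4 to Col4a3: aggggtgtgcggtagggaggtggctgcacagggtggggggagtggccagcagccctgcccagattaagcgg
None of 3 motifs, TATAAA (the TATA box), CCAAT (the CCAAT box) and GGGCGG (the GC box), which do not contain one another and were searched on both strands, occurs in it. In windows from 250 bases before to 50 bases after the start, available from RefSeq for 35 of the 44 genes as 38 windows, TATAAA was present in 13.2% and CCAAT in 34.2%. The shares over all 32851 windows were 13.6% and 37.4%. GGGCGG was present in 60.5% of collagen windows and 35.7% of all windows. Col3a1 was among the 5 windows with TATAAA, while the windows of Col4a1 and Col4a2 had CCAAT and GGGCGG. Col12a1, Col14a1, Col1a1, Col22a1, Col26a1, Col2a1, Col4a3, Col5a2 and Col9a3 had no window in the table.

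The collagen genes were on the whole higher in replicate 1. The log2 ratio of replicate 1 over replicate 2 was taken on counts scaled by TMM (a scaling that centres most genes), after adding 1 count to each. Its 95% interval (exact Clopper-Pearson) covers counting error only. With 2 hearts an exact sign permutation cannot go below p = 0.5, so no p is given. Over the 35 collagen genes whose mean expected count was at least 10 the median was 0.36 (quartiles 0.12 and 0.47). Over all 15749 such genes it was -0.0011 (quartiles -0.13 and 0.14). At a mean count of at least 50, 25 of 25 collagen genes were higher in replicate 1 by any amount, against 49.9% of 12541 genes. With spike-in scaling 23 of 25 were higher, and Col8a1 and Col11a2 stood at -0.041 and -0.028.

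A ratio of 1.5-fold or more, a rule of size and not a test, was reached by 3 of these 25 genes in replicate 1, against 2.58% of all genes. Col5a3 had 2574 counts in replicate 1 and 1640 in replicate 2, which gives 0.69 on the log2 scale (0.61 to 0.79). Col4a6 had 240 and 162 counts, with 0.61 (0.32 to 0.91). The FACIT gene Col12a1, a fibril-associated chain of tendon and muscle, had 127 and 86 counts, with 0.60 (0.20 to 1.02). Of these, Col5a3 alone stayed past the threshold when counts were scaled to the spike-in totals. None of the 25 reached it in replicate 2, against 1.69% of all genes, and none was 2-fold higher in either heart (1.00% and 0.279% of all genes in replicates 1 and 2). At 1.2-fold, a threshold added after the data were seen, 17 of 25 were higher in replicate 1, against 10.4% of all genes, and 0 of 25 in replicate 2, against 8.60%.

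The abundant chains had narrow intervals away from 0. Col4a1 stood at 0.39 (0.36 to 0.41), Col3a1 at 0.46 (0.44 to 0.49) and Col1a1 at 0.38 (0.34 to 0.41). Col4a2 was lower at 0.28 (0.25 to 0.30), and its counting interval did not meet that of Col4a1. Such intervals leave out the larger spread between the libraries, so they cannot show that 2 genes differ. Within the class, Col4a5 stood below Col4a1 and Col4a2 at 0.09 (0.02 to 0.16). The short-chain gene Col8a1 was level between hearts at 0.03 (-0.13 to 0.20). The class medians were 0.37 for 10 fibrillar genes, 0.27 for 6 type IV genes, 0.26 for 6 beaded filament genes and 0.42 for 2 multiplexins. For 11 genes of the other types the median was 0.57, but 0.445 over the 5 of them with a mean count of at least 50. Of the members with a mean count between 10 and 50, Col2a1, Col6a5, Col7a1 and Col20a1 had ratios below 0, and the intervals of all 4 included 0.

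**Figure D4:**
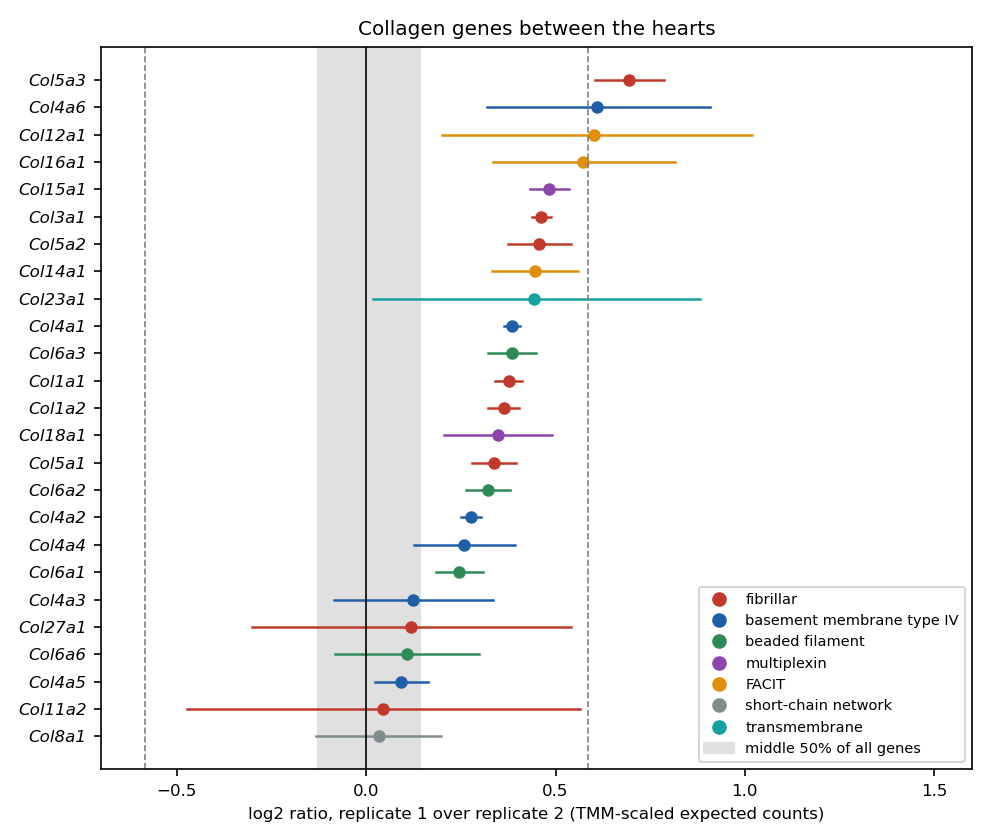
Log2 ratio of replicate 1 over replicate 2 for the 25 collagen genes whose mean expected count was at least 50. Points are coloured by class, bars are 95% counting intervals, the grey band holds the middle 50% of all genes (-0.13 to 0.14), and dashed lines mark 1.5-fold. Every point lies above 0 with this TMM scaling, and Col5a3, Col4a6 and Col12a1 lie past the right dashed line.

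Genes with long RNAs, and genes with a GC content like that of the collagen genes, were looked at beside the collagen genes. Among nuclear protein-coding genes with a mean count of at least 50, those with an effective length of 4000 nt or more (2232 genes) had a median log2 ratio of 0.015. Those with a GC content between the quartiles of the collagen genes, 51.5% and 58.9% (4420 genes), had a median of -0.0012. Genes with both properties (664 genes) had a median of 0.025, and 55.9% of them were higher in replicate 1.

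Markers of the cell types in the tissue were compared between the same libraries, since in bulk RNA more cells of a type and more RNA per cell cannot be told apart. All 7 fibroblast markers were at 1 TPM or more in both hearts, their summed level was 293 and 283 TPM in replicates 1 and 2, and their median log2 ratio was 0.069. The 7 single ratios ran from -0.064 for Tcf21 to 0.48 for Mfap4, with Dcn at -0.0042, Fbln1 at 0.065, Pdgfra at 0.069, Lum at 0.19 and Dpt at 0.34. The 7 endothelial markers summed to 245 and 278 TPM (median 0.018), and the 8 pericyte and smooth muscle markers to 320 and 336 TPM (median -0.036). The medians of these 3 lists were below that of the collagen genes, but single ratios varied. They ran from -0.55 to 0.16 for endothelial markers and from -0.42 to 0.16 for pericyte and smooth muscle markers. Whether the share of a cell type differed between the libraries was not tested.

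The 5 mesothelial markers, of the cell layer that covers the heart, were all higher in replicate 1. Their summed level was 23.1 and 17.4 TPM and their median 0.39. Of all 15749 genes with at least 10 counts on average, 49.7% were higher in replicate 1. Of the 5 mesothelial markers, all with at least 50 counts on average, 1 was 1.5-fold or more higher in replicate 1, against 2.58% of all genes. The 4 atrial markers had ratios above 0, with 1232 and 1085 TPM and a median of 0.47. Nppa, at 636 and 643 TPM, was nearly level at 0.023 (-0.0078 to 0.055), and Myl4, Myl7 and Sln stood at 0.44, 0.50 and 0.50. The 5 cardiomyocyte markers were all lower (19020 and 20890 TPM, median -0.090). Adipocyte markers summed to 61.0 TPM in replicate 1 and 4.00 TPM in replicate 2. The 4 with at least 50 counts on average, Ucp1, Plin1, Cidec and Adipoq, were 1.5-fold or more higher in replicate 1, against 2.58% of all genes. Macrophage markers had a median of 0.0017. Cartilage and valve markers had a median of 0.17, with 1 of 6 at 1 TPM in both hearts. Sox9, 1 of the 2 with at least 50 counts on average, was past 1.5-fold in replicate 2, against 1.69% of all genes. It had 55 and 91 counts and a log2 ratio of -0.67 (-1.19 to -0.18). Of the 4 skeletal muscle markers, Tnni2 had 21 and 27 counts in replicates 1 and 2, Actn3 16 and 10, Myh4 0 and 5, and Myh1 0 and 1. The part of the mesothelial, atrial and adipocyte tissue in the collagen difference was not tested.

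Genes that act on collagen were described in 5 lists. Over all 12541 genes with at least 50 counts on average, 2.58% were past 1.5-fold in replicate 1 and 1.69% in replicate 2. Collagen chains are modified and folded in the endoplasmic reticulum by hydroxylases and chaperones, trimmed and crosslinked outside the cell, and removed by proteases and uptake receptors. Of 22 biosynthesis genes, 21 reached 1 TPM in both hearts, with a median log2 ratio of 0.068. The most abundant were Serpinh1, the collagen chaperone HSP47, at 153 and 125 TPM, P4hb, a subunit of prolyl hydroxylase, at 95.3 and 93.1 TPM, and the prolyl isomerase Ppib at 51.8 and 47.8 TPM. Creb3l1, a transcription factor known to drive type I collagen in bone, had 288 counts in replicate 1 and 136 in replicate 2, with a log2 ratio of 1.12 (0.83 to 1.43). It was the only gene of this list past 1.5-fold, and its ratio exceeded that of every collagen gene with at least 50 counts on average.

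Of 14 genes for propeptide processing and crosslinking, 10 reached 1 TPM, with a median of 0.31 and 12 of 14 higher in replicate 1, against 49.7% of all 15749 genes with at least 10 counts on average. None of those with at least 50 counts on average was past 1.5-fold. The procollagen proteinase enhancer Pcolce had 27.3 and 21.5 TPM, the peroxidase Pxdn, which crosslinks type IV collagen, 23.8 and 20.1 TPM, and Pcolce2 13.6 and 11.4 TPM. Of 9 breakdown genes 6 reached 1 TPM (median 0.16). The gelatinase Mmp2 had 39.1 and 33.8 TPM, and the peptidase Pepd and the uptake receptor Mrc2 had 10.1 and 8.89 TPM and 7.29 and 7.49 TPM. Mmp14, a membrane-bound collagenase, was past 1.5-fold with 8.06 and 4.64 TPM, a log2 ratio of 0.77 (0.58 to 0.96). It was the only such gene of the 6 with at least 50 counts on average, against 2.58% of all genes.

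Of 10 collagen receptors 5 reached 1 TPM, with a median of 0.043 and none past 1.5-fold among those with at least 50 counts on average. The integrin chain Itgb1 had 149.9 and 151 TPM, the adhesion receptor Adgrg1 24.6 and 22.9 TPM, and the integrin Itga1 15.1 and 15.7 TPM. All 11 basement membrane partners reached 1 TPM, with a median of 0.14 and none past 1.5-fold. Sparc, a collagen-binding matrix protein, had 345 and 296 TPM. The laminin chain Lamb2 had 118 and 135 TPM and was lower in replicate 1, and the proteoglycan Hspg2 had 107 and 94.1 TPM.

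**Figure D5:**
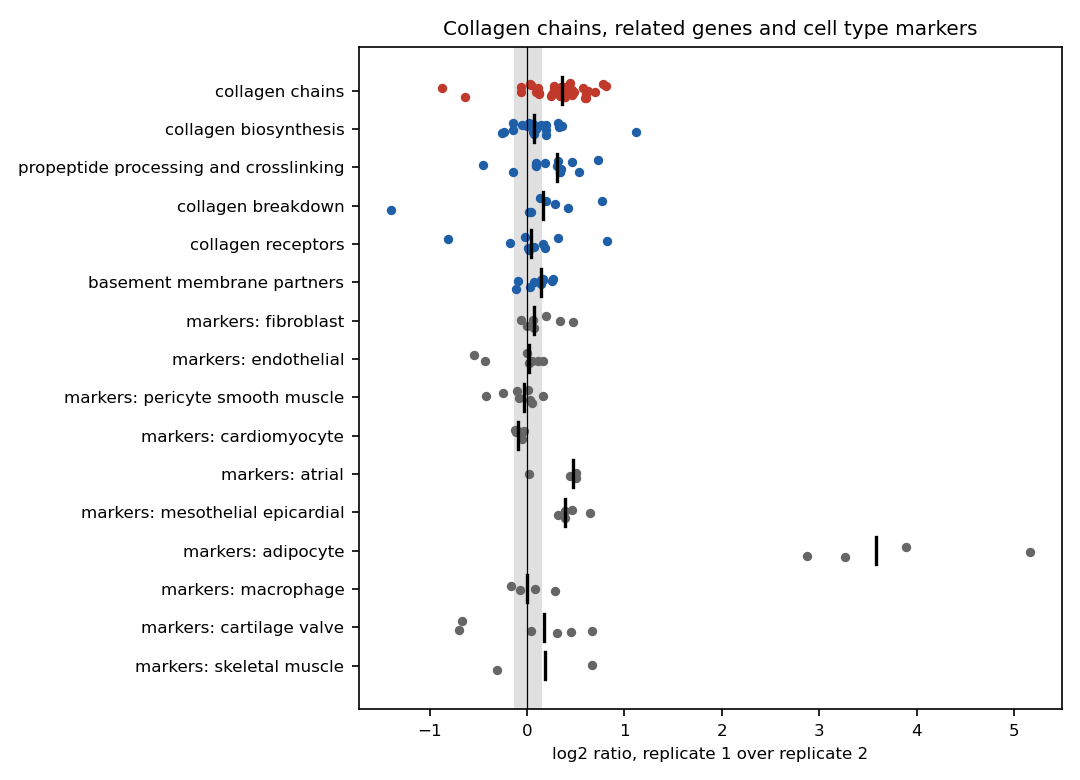
Log2 ratio of replicate 1 over replicate 2 for the genes of each list whose mean expected count was at least 10. Collagen chains are red, related lists blue and marker lists grey, with vertical bars for medians and a grey band for the middle 50% of all genes. The collagen median is 0.36, and the largest list median is that of the adipocyte markers at 3.58.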

How the data were processed

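The authors deposited expected counts for genes and transcripts (first quantification) on mm10 with GENCODE M21, per the labels. Beside them they deposited TPM, FPKM and, for each transcript, its percent of the gene. Estimated counts and TPM of a second quantification, made from an index, were also deposited by the authors and were summed per gene. The sources used here do not give the software. FPKM served as an alternative.

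Expected counts were rounded for edgeR 4.0.16 (TMM) and DESeq2 1.42.0 (size factors) in R 4.3.3, and spike-ins were left out of the scaling. The members, classes, lists and thresholds were chosen with earlier results of these data known. Every collagen gene may be named; of other lists, the genes past 1.5-fold with at least 50 counts on average and the 3 of highest TPM, and marker genes. The result of 1 marker list is not reported here. The ratio rule was tried on simulated counts with counting error only. That simulation lacks the larger spread seen between these libraries, so it does not show how the rule performs on them. PCR copies cannot be told from separate molecules in these reads, so intervals and floors cover counting error only. The alternatives were other scalings, count filters, thresholds, prior counts, the second quantification, long transcripts and each library alone. With 2 samples the precision of every SD is low.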

Additional observations from a re-analysis of the deposited data

How the results depend on the processing

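The number of collagen genes at 1 TPM in both hearts stayed within 1.5 times the reported 20 under each alternative (14 at 5 TPM to 22 at 0.5 TPM; 20 and 21 with each library alone). The median log2 ratio of collagen genes ranged from 0.29 with spike-in scaling, which moves the median of all genes to -0.075, to 0.37 with no filter on counts. The number past 1.5-fold in replicate 1 was 3 of 25 as reported, 1 of 25 with spike-in scaling and 7 of 35 with means of at least 10 counts. At 2-fold it was 0 of 25 and at 1.2-fold 17 of 25. The shares of all genes were 2.58% as reported, 1.00% at 2-fold and 10.4% at 1.2-fold. For spike-in scaling and for means of at least 10 counts the share of all genes was not computed. The number higher in replicate 1 by any amount was 25 to 26 except with spike-in scaling (23), a count added after seeing the data. The number past 1.5-fold in replicate 2 was 0 of 25 as reported, against 1.69% of all genes. It was 2 of 35 with means of at least 10 counts, where the share of all genes was not computed. Col4a6 stood at 0.54 with spike-in scaling, and Col12a1 at 0.58 with library totals and 0.53 with spike-in scaling, below the threshold. With spike-in scaling the median of basement membrane partners was 0.067, and those of biosynthesis genes and receptors were -0.0052 and -0.031. The collagen share was 0.588% by counts.

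Most shares moved by more than the spread of the 2 hearts. Those that did not were Col8a1 in each setting, the collagen share of TPM, the type VI chains and Col5a3 in the second quantification, and Col5a1 and Col5a3 over long transcripts. By counts, in the second quantification and over coding transcripts of 2000 nt or longer, the fibrillar share was 39.7%, 40.4% and 41.0%, type IV 44.3%, 43.8% and 40.2%, beaded filament 9.36%, 9.22% and 11.5%, multiplexin 4.88%, 4.87% and 5.38%, and other types 1.76%, 1.74% and 1.86%. In the same order Col1a1 held 55.8%, 46.6% and 53.9% of type I, Col4a1 59.2%, 71.5% and 57.9% with Col4a2, Col5a2 25.1%, 26.6% and 26.9% of type V, and Col15a1 88.6%, 87.2% and 87.6%. Col5a1 held 52.6% by counts and 48.7% in the second quantification, and Col5a3 22.3% by counts. By counts and over long transcripts, Col6a1 held 32.4% and 38.8%, Col6a2 36.2% and 44.2%, and Col6a3 31.4% and 16.9% of type VI. Counts weigh longer RNAs more by construction. The cause of the other shifts was not tested. No paired analysis was possible because there is 1 group, in which the replicate numbers pair nothing. Members with few counts have wide intervals, and n = 2 limits the rest.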

Other observations

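Other genes also carry long runs of glycine-codon triplets. Of the 54 non-collagen genes with a run of 10 or more triplets, 25 reached 1 TPM in both hearts. Of the 27 with at least 50 expected counts on average, 16 were higher in replicate 1, against 49.9% of all 12541 such genes. Their median log2 ratio was 0.047. The genes named here were chosen after their values were seen. The complement genes C1qa, C1qb and C1qc, whose proteins have a collagen-like stem, had 26.3 and 25.6 TPM, 28.8 and 26.8 TPM, and 21.5 and 19.9 TPM in replicates 1 and 2. Eln, which encodes the elastic fibre protein elastin, had the highest mean TPM of the 54, with 63.8 and 37.9 TPM, although Ncl was above it in replicate 2 with 40.05 TPM. Eln had a log2 ratio of 0.78, above the ratio of each collagen gene with at least 50 counts on average. Adipoq had 256 and 35 counts, a log2 ratio of 2.88.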
